A study of Mus musculus with 4 samples.

Results

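Annexins are calcium-dependent, phospholipid-binding proteins, and 9 annexin genes of the mouse were examined here in RNA of sorted odontoblasts and sorted osteoblasts: Anxa1, Anxa2, Anxa3, Anxa4, Anxa5, Anxa6, Anxa7, Anxa8 and Anxa11. They were taken by gene name from the non-control probes of a two-colour expression array. This gave 14 probes of 9 genes, out of 55681 probes, and 19877 genes were kept for testing in all. The 14 probes stood on 23 spots per array, because 1 probe of Anxa8 was printed 10 times. All 14 probes passed the filter on dim signal, and all except 1 probe of Anxa4 lay well above background on all 4 arrays in Cy5 and in Cy3.

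Odontoblasts, which lay down dentin, and osteoblasts, which lay down bone, were sorted for green fluorescence out of enzyme-treated dental pulp and calvaria (skull bone). All donors were 2-week-old mice that carried EGFP under a 2.3 kb type I collagen promoter, so both cell populations share that transgene and were chosen by its activity. The labels give the strain C57BL/6 for the odontoblast RNA, describe the 2 tissues as donor matched, and give no number of animals per RNA. The strain of the osteoblast donors is not given separately. On each of the 4 arrays the odontoblast RNA was labelled with Cy5 and the osteoblast RNA with Cy3, and 250 ng of each cDNA was used. Ratios below are log2 of Cy5 (labelled odontoblast) over Cy3 (labelled osteoblast), so that a positive value means more signal in Cy5.

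On these arrays the mean ratios of the marker genes of both cell types went opposite to the dye labels, though not every marker did so on each array. The odontoblast markers were Dspp, Nes, Dmp1, Wnt10a, Bmp7 and Sall1. All 6 had negative mean ratios, with a median of -2.50. Called toward Cy3 were 3 of them, Wnt10a, Bmp7 and Sall1, but not Nes (limma, adjusted p = 0.0687) or Dmp1 (0.111). All 9 osteoblast markers had positive mean ratios, with a median of 2.65, and 3 were called toward Cy5. Sp7 (mean 0.015, adjusted p = 0.989) and Bglap (mean 1.34, adjusted p = 0.392) were positive on 2 arrays and negative on 2. Over all genes 2.17% were called. The gene lists were chosen with earlier results of these data known, so these counts and medians are no independent test of the labels. Dspp, the dentin matrix gene, had a mean log2 ratio of -1.95 (adjusted p = 0.0600), and Ifitm5, a membrane protein gene of bone-forming osteoblasts, one of 5.05 (adjusted p = 0.0168). Channels are therefore named by dye and label and not by cell type, and if the labels were exchanged each ratio would change its sign. All arrays had the same dye orientation, so a preference of a probe for 1 dye and a difference between the RNAs cannot be told apart. The arrays shared 1 slide and 1 scan. Between arrays, the ratios of all genes correlated with r of 0.32 to 0.53, array 3 having the lowest values. Signal over local background had a median of 7.10 to 8.21 in Cy5 and 10.9 to 16.0 in Cy3, depending on the array. Since nothing says that the RNAs came from separate animals, p-values describe only how much these 4 arrays vary, and 4 arrays limit the precision.

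Matrix vesicles are small membrane sacs that bud from mineralising cells and in which the first calcium phosphate crystals form. Annexins are among their most abundant proteins. They bind calcium and the phosphatidylserine of the membrane, and in mineralising cartilage and bone Anxa2, Anxa5 and Anxa6 are the members best known from these vesicles. Other family members act in membrane repair, vesicle fusion, inflammation and clotting.

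The array reads each gene through oligonucleotides of 60 bases. Shown here, as the array file spells them and 5′ to 3′, are 3 of the brightest probes, those of Anxa3, Anxa1 and Anxa11, which begin at bases 639, 991 and 898 of their transcript records. They show what sequence a ratio of these genes was read through, and coordinates are those of the file on the mm9 build. The Anxa3 probe lies at chr5:97253925-97253984 on the plus strand and has 53.3% G and C. The Anxa1 probe lies at chr19:20449722-20449781 on the minus strand with 35% G and C, and the Anxa11 probe at chr14:26694168-26694227 on the plus strand with 45%.
Anxa3: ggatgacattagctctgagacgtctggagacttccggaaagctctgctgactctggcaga
Anxa1: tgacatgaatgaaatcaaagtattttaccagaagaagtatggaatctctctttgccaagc
Anxa11: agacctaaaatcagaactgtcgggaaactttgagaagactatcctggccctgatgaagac

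The annexins went both ways. In sorted bulk RNA, fewer cells of a type and less RNA per cell cannot be told apart. Of 9 annexins, 1 passed the test across all features (limma, adjusted p under 0.05), Anxa4, toward Cy5, and 0 passed toward Cy3. Over all 19877 genes 2.17% were called, 1.3% toward Cy5 and 0.87% toward Cy3, and over all features, unnamed ones included, 1.71%. At an unadjusted p under 0.05 there were 4 annexins, Anxa1, Anxa3, Anxa4 and Anxa8, where 21.2% of all genes reached that level. Mean ratios of the 9 genes ran from -1.16 to 1.14 with a median of -0.05, and the median of all genes was 0.01. In 4 of the 9 the ratio had the same sign on all arrays (31.4% of all genes), and in 3 of the 9 the levels of the channels did not overlap over the 4 arrays (14.2% of all genes). With 4 arrays an exact two-sided sign-flip permutation test of 1 gene cannot go below 0.125. Anxa3, Anxa4, Anxa5 and Anxa8 stood at that smallest value.

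**Figure D1:**
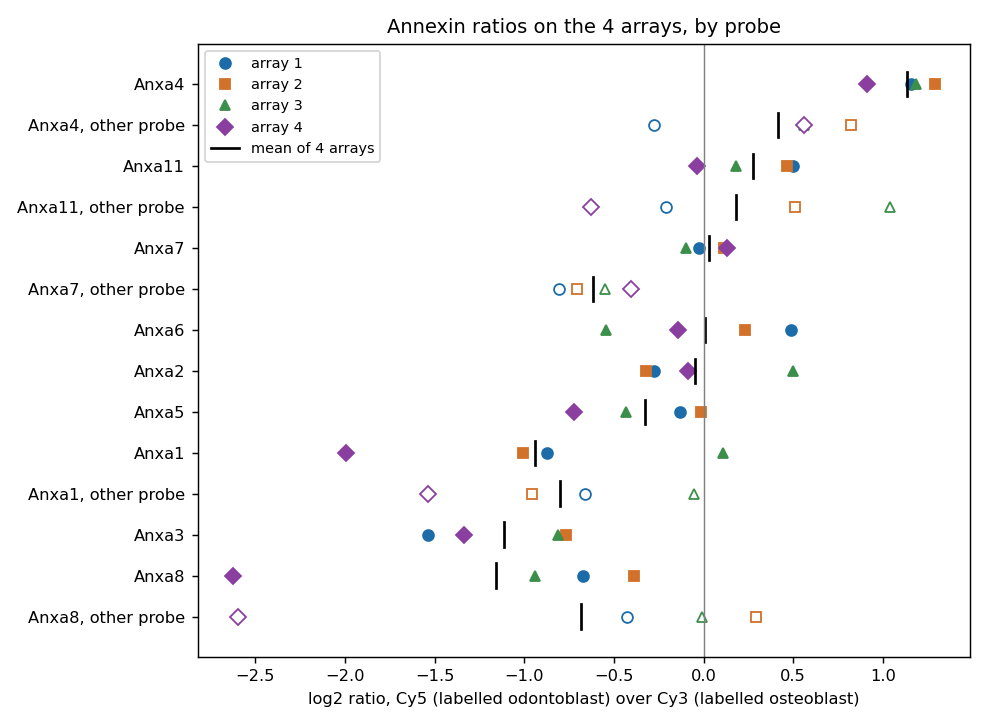
Log2 ratio of Cy5 (labelled odontoblast) over Cy3 (labelled osteoblast) on the x axis for each of the 14 probes, ordered by the ratio of the gene, with 1 marker per array and a bar at the mean of the 4 arrays. Filled markers are the brightest probe of a gene, open markers its other probe. Anxa4 lies between 0.91 and 1.29 on its brightest probe, and Anxa8 reaches -2.63 on array 4.

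The annexins of matrix vesicles proper, Anxa2, Anxa5 and Anxa6, had small ratios. Anxa5, the annexin that binds exposed phosphatidylserine on dying cells and that is abundant in matrix vesicles, gave scanner signals of 62444, 54738, 59161 and 38488 in Cy5 on arrays 1 to 4, against 24726, 19387, 22223 and 19348 in Cy3. After loess normalization, which removes the overall dye bias at each brightness, its ratios were -0.13, -0.02, -0.44 and -0.72. The sign was negative on 4 of 4 arrays, and array 4 was the lowest. The mean was -0.33 ± 0.19 (SE, n = 4, adjusted p = 0.418), with a 95% interval of -0.82 to 0.16. In linear terms this interval runs from 0.57 to 1.12 times the Cy3 signal. The normalised log2 level was 14.88 ± 0.23 in Cy5 and 15.20 ± 0.13 in Cy3 (SD, n = 4). The direction depended on the scaling. With each array centred on its median in place of loess, which moves the median gene to 0.20, Anxa5 had a ratio of 0.50, or 0.30 relative to the median gene (adjusted p = 0.183).

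Anxa2, which forms a complex with S100a10 on the inner face of the plasma membrane, had ratios of -0.28, -0.32, 0.50 and -0.08 on arrays 1 to 4. Array 3 went against the other 3. Its mean was -0.05 ± 0.21 (SE, adjusted p = 0.923), with a 95% interval of -0.57 to 0.48. With median centring it was 0.33, or 0.13 relative to the median gene. Anxa6, the annexin with an enlarged core, had ratios of 0.49, 0.23, -0.55 and -0.14. Arrays 1 and 2 lay on the Cy5 side and arrays 3 and 4 on the Cy3 side. The mean was 0.01 ± 0.23 (SE, adjusted p = 0.989), with an interval of -0.57 to 0.58. With median centring it was 0.36, or 0.16 relative to the median gene. In linear terms the intervals run from 0.67 to 1.39 times the Cy3 signal for Anxa2 and from 0.676 to 1.497 times for Anxa6. The levels of Anxa2 averaged 12.73 ± 0.42 in Cy5 and 12.78 ± 0.26 in Cy3, and those of Anxa6 12.65 ± 0.13 in Cy5 and 12.64 ± 0.48 in Cy3 (log2, SD, n = 4 each), so the groups overlapped.

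Anxa4, an annexin common in epithelia, was the member with the highest ratio. Its scanner signals were 14212, 15189, 14299 and 10126 in Cy5 on arrays 1 to 4, against 3405, 2930, 2409 and 2206 in Cy3. Ratios were 1.16, 1.29, 1.18 and 0.91, all on the Cy5 side. The normalised levels did not overlap, at 12.80 to 13.34 in Cy5 and 11.88 to 12.04 in Cy3 (log2). The mean ratio of 1.14 ± 0.17 (SE, n = 4) is a 2.20-fold difference, with a 95% interval of 1.65 to 2.94, and limma gave an adjusted p of 0.0472. That call was narrow. It was lost without any 1 of the 4 arrays (adjusted p between 0.0958 and 0.180), with the scanner software's own log ratio (adjusted p = 0.0882), and with background subtracted in place of modelled (adjusted p = 0.0702), although the ratio stayed between 1.09 and 1.21 in these settings. Without array 1 or array 2 limma called 0 of all 19877 genes, so the loss there could not depend on Anxa4. The sign held with median centring too, at 1.48, or 1.28 relative to the median gene. With both probes of the gene averaged the ratio was 0.78 (adjusted p = 0.121). Fitted over all probes and not the brightest of each gene, the brighter Anxa4 probe had a limma adjusted p of 0.0501.

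The probe behind that value lies at chr6:86686883-86686942 on mm9 and begins at base 1894 of its transcript record. The other Anxa4 probe, at chr6:86700845-86700904, belongs to an Ensembl transcript, was well above background in Cy3 on 2 arrays only, and gave -0.27, 0.83, 0.56 and 0.56. The brighter probe was higher than the dimmer on 4 of 4 arrays, by 0.72 ± 0.49 (SD). The mm9 gene models were not used here, so neither probe is placed in an exon or intron.

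Set within the family, and read through the brightest probe of each gene, Anxa4 stood above each of the other 8 annexins on every array. Anxa11 came nearest, 0.86 ± 0.15 below it (SD over arrays). Against Anxa5 the difference was 1.46 ± 0.19, and against Anxa3 it was 2.25 ± 0.32 (exact sign-flip permutation p = 0.125 each, the smallest possible). Anxa4 was compared because it ranked highest, so these p-values follow a choice made from the same data. The dimmer Anxa4 probe, at -0.27 on array 1, lay below Anxa11, Anxa6, Anxa7 and Anxa5 on that array. Of the 36 pairs of annexins, 23 kept the same order on all 4 arrays. These include the 8 pairs with Anxa4, and no share over pairs of other genes is given here. Below Anxa4 the order of mean ratios was Anxa11, Anxa7, Anxa6, Anxa2, Anxa5, Anxa1, Anxa3 and Anxa8, and each neighbouring pair in that order changed places on at least 1 array. The genes whose 4 ratios lay closest to those of Anxa4 were Btnl9, Dennd6b, Trafd1, Cdca5 and Crtap, at Euclidean distances of 0.30 to 0.39 (log2) over the 4 arrays. They were found among 16128 candidate genes that were bright in both channels, 26 of which lay within 0.5.

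Anxa3, known in humans and rodents as an annexin of neutrophils and of some epithelia, lay on the Cy3 side. Its scanner signals were 15890, 27623, 23902 and 20569 in Cy5 on arrays 1 to 4, against 20137, 17892, 13332 and 17057 in Cy3. Ratios were -1.54, -0.77, -0.81 and -1.33, negative on all 4 arrays. Normalised levels did not overlap, at 13.22 to 14.06 in Cy5 and 14.48 to 15.03 in Cy3 (log2). The mean was -1.11 ± 0.21 (SE), a 2.16-fold size, with a 95% interval of -1.64 to -0.58, and the adjusted p of 0.0810 missed the threshold. When the channels were fitted as separate samples without the pairing within an array, the adjusted p was 0.0342. With median centring the mean was -0.46, or -0.66 relative to the median gene. The cells had been sorted for EGFP, and how pure the sort was with respect to neutrophils was not measured here. Neutrophil markers had a median of -0.30 with 0 of 6 measured markers called, and their summed log2 level was 11.1 to 12.7 in Cy5 and 10.6 to 11.8 in Cy3. Of these 6, 5 had negative means, as Anxa3 did. Elane was negative on 4 of 4 arrays, with a mean of -0.55 (adjusted p = 0.179). Ly6g alone had a positive mean, 1.29 (adjusted p = 0.180), and was positive on 4 of 4 arrays at 0.32 to 2.56. S100a8, Ltf and Retnlg did not pass the filter on dim signal. The part of neutrophils in the Anxa3 ratios was not tested.

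Anxa1, a glucocorticoid-induced protein that dampens inflammation through formyl peptide receptors, differed by array. Its scanner signals were 40543, 37205, 63161 and 32133 in Cy5, against 27910, 26412, 16632 and 37222 in Cy3. Ratios were -0.88, -1.01, 0.11 and -1.99 on arrays 1 to 4. Array 3 had the highest Cy5 signal with the lowest Cy3 signal, and array 4 the reverse. The second probe of the gene, at chr19:20447938-20447997, ranked the arrays the same way, with -0.66, -0.96, -0.05 and -1.54. The mean of the brighter probe was -0.94 ± 0.36 (SE, adjusted p = 0.245). It was -1.29 without array 3, -0.59 without array 4 and -0.13 with median centring. Relative to the median gene the centred mean was -0.32.

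Anxa8, named for its anticoagulant activity in blood vessels, had the lowest mean ratio of the family. Its brighter probe gave scanner signals of 23461, 24418, 24011 and 4232 in Cy5 on arrays 1 to 4, against 16010, 12748, 14544 and 10385 in Cy3. Array 4 was far lower in Cy5 than the other 3 and the lowest in Cy3 as well. Ratios were -0.67, -0.39, -0.94 and -2.63. Levels did not overlap, at 11.55 to 13.91 in Cy5 and 14.17 to 14.61 in Cy3 (log2). The mean of -1.16 ± 0.40 (SE) had an adjusted p of 0.221. It was -0.67 without array 4 (adjusted p = 0.372) and -0.585 with median centring (adjusted p = 0.451). Relative to the median gene the centred mean was -0.78.

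The dimmer Anxa8 probe, printed on 10 spots of each array, gives the spread between spots of 1 array beside that between arrays. Its mean ratios were -0.43, 0.29, -0.01 and -2.59 on arrays 1 to 4. The SD between the 10 spots of an array was 0.06, 0.06, 0.04 and 0.12, while the SD between the 4 array means was 1.31. Array 4 lay far below the others on every spot, from -2.75 to -2.35. The brighter probe was lower than this one on 4 of 4 arrays, by 0.03 to 0.93, and on array 2 the probes had opposite signs.

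**Figure D2:**
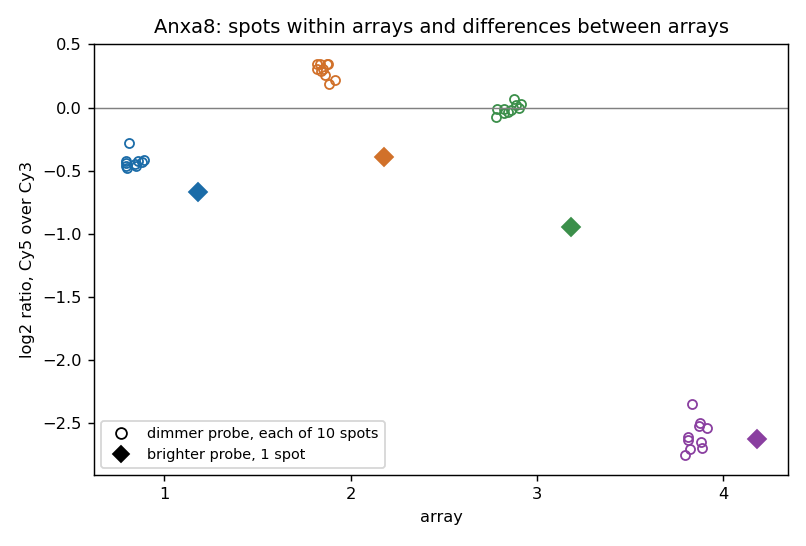
Log2 ratio of Cy5 over Cy3 for Anxa8 on each array, with open circles for the 10 spots of the dimmer probe and a diamond for the single spot of the brighter probe. Spots of 1 array cluster tightly, and array 4 lies near -2.6 on both probes.

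Markers of other cell types also differed between the channels and between arrays. For the counts below, 2.17% of all genes were called. The marker lists were chosen with earlier results of these data known. Dental epithelium markers had per-array medians of -0.82, -0.70, -0.10 and -1.16 on arrays 1 to 4, so array 3 was the highest and array 4 the lowest, as for Anxa1. Of 10 measured epithelial markers 2 were called, Odam and Ambn, both toward Cy3. Their summed log2 level was 11.2 to 11.7 in Cy5 and 12.7 to 13.7 in Cy3, and Amtn did not pass the filter. Single epithelial markers ranked the arrays in different ways. Odam had -5.16, -5.59, -5.02 and -4.24 on arrays 1 to 4, and Ambn -2.58, -2.89, -4.16 and -2.56. Both were highest on array 4, and Ambn was lowest on array 3. Of the uncalled markers, Perp (-2.50, -1.54, 0.40 and -2.97) and Epcam (-0.23, 0.34, 0.75 and -0.98) were highest on array 3 and lowest on array 4. Enam (-3.00, -2.10, 0.14 and -1.33) was highest on array 3, and Krt14 (-0.03, -0.002, -0.24 and -0.12) was lowest there. Macrophage and leukocyte markers had medians of 1.15, 0.81, 2.998 and 0.67, with array 3 highest. Of 15 measured, 3 were called, all toward Cy5, and the summed log2 level was 16.8 to 17.7 in Cy5 and 16.3 to 16.8 in Cy3. The brightest of them, Itgam, had mean levels of 16.19 in Cy5 and 16.02 in Cy3, so it weighs most in that sum. Means were positive for 10 of the 15 and negative for 5. Among the negative were H2-Ab1 (mean -1.45) and Csf1r (mean -0.39, negative on 4 of 4 arrays), neither called. Fibroblast and periosteum markers had medians of 2.76, 4.05, 1.05 and 2.72, with array 3 lowest. Of 9 measured, 4 were called, all toward Cy5, and the summed log2 level was 17.43 to 17.98 in Cy5 and 15.90 to 17.71 in Cy3. Postn (mean -1.62) and Pdgfra (mean -1.05) of this list went the other way, negative on 4 of 4 arrays, and were not called. Cartilage markers had medians of 0.75, 2.40, 1.12 and 0.56. Of 9 measured, 3 were called, all toward Cy5, and the summed log2 level was 15.56 to 17.71 in Cy5 and 12.02 to 13.03 in Cy3. Of 6 measured endothelial markers 0 were called by limma, with 0 at an unadjusted p under 0.05. The part of any of these cell types in the annexin ratios, that of Anxa4 included, was not tested.

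**Figure D3:**
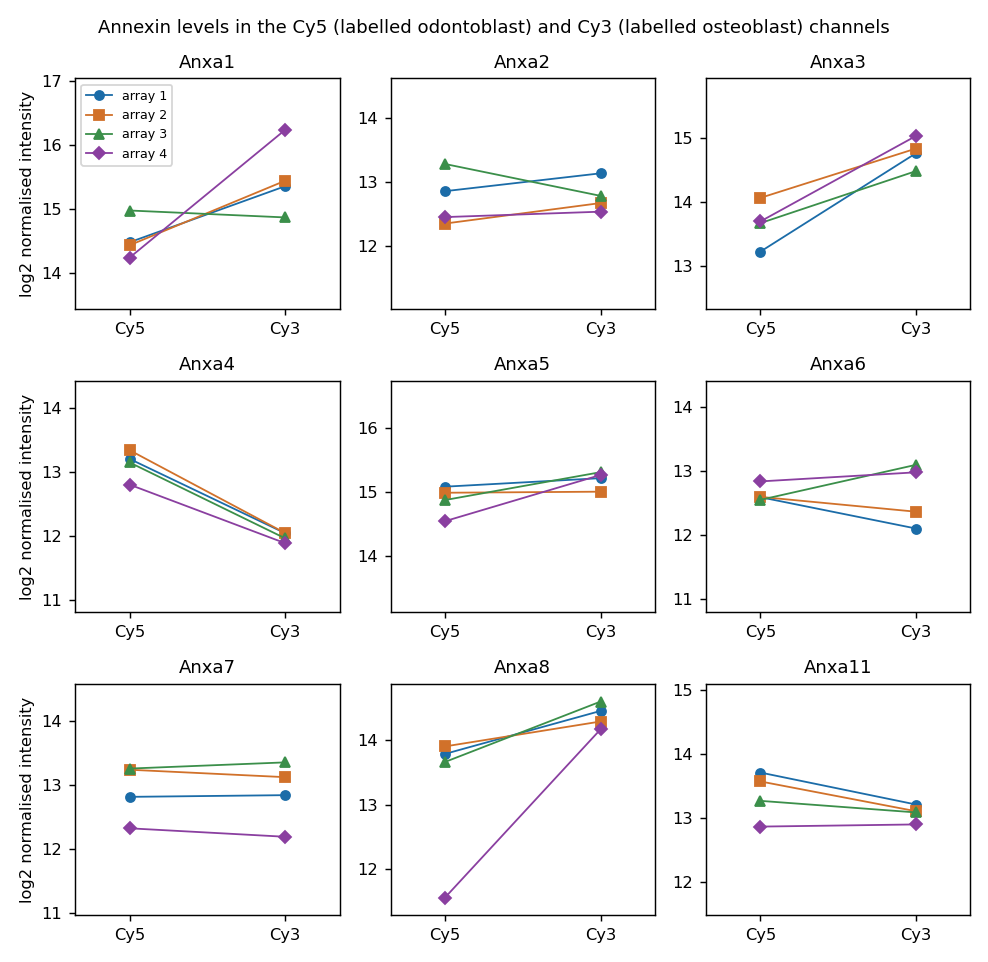
Normalised log2 intensity of the brightest probe of each annexin in the Cy5 (labelled odontoblast) and Cy3 (labelled osteoblast) channels, with a line joining the 2 channels of each array and axes that span the same log2 range in every panel. Lines of Anxa4 all slope down from Cy5 to Cy3 and those of Anxa3 all slope up, while array 4 alone drops to 11.55 in Cy5 for Anxa8.

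Anxa7 (synexin), which promotes membrane fusion, and Anxa11, which carries a long N-terminal region and binds S100a6, were not called. Anxa7 gave -0.03, 0.12, -0.10 and 0.13 on arrays 1 to 4, with a mean of 0.03 ± 0.16 (SE, adjusted p = 0.933) and a 95% interval of -0.37 to 0.44. Its second probe, which begins at base 1947 of the same transcript record where the first begins at 2148, gave -0.80, -0.71, -0.55 and -0.41. The probes therefore differed on 4 of 4 arrays, by 0.65 ± 0.18 (SD), although both were bright in both channels. Fitted over all probes, the second probe had a mean of -0.62 ± 0.17 (SE, adjusted p = 0.164), so the sign for Anxa7 depended on the probe. Anxa11 gave 0.50, 0.46, 0.18 and -0.03, with a mean of 0.28 ± 0.18 (SE, adjusted p = 0.454) and a 95% interval of -0.18 to 0.73. With median centring the mean was 0.73 for Anxa11 (adjusted p = 0.0774), or 0.53 relative to the median gene, and 0.43 for Anxa7, or 0.23 relative to it. The dimmer Anxa11 probe ranged from -0.63 to 1.04 around a mean of 0.18.

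The other 3 annexins on the array, Anxa9, Anxa10 and Anxa13, are not counted above, and none was called. Anxa10, well above background on all 4 arrays in Cy5 and in Cy3, had ratios of 0.58, 0.77, 0.57 and 0.30, all positive, with a mean of 0.56 ± 0.17 (SE, adjusted p = 0.186). Anxa9 averaged -0.42 ± 0.29 (SE, adjusted p = 0.475), and was well above background on 3 arrays in each channel. Anxa13 averaged 0.40 ± 0.28 (SE, adjusted p = 0.484) and lay well above background on 3 arrays in Cy5 and on 0 in Cy3.

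Proteins that bind annexins gave 1 call. Of 17 listed partners 15 were measured, 11 with a negative and 4 with a positive mean. The median ratio was -0.15. At an unadjusted p under 0.05 by limma there were 7, where 21.2% of all genes reached that level. The list was chosen with earlier results of these data known, so its counts are no independent result. Of the 15 measured, 1 was called (6.67%, against 2.17% of all genes), toward Cy3. That was Dysf, which encodes dysferlin, a muscle membrane repair protein that binds Anxa1 and Anxa2. Its ratios were -4.10, -4.18, -2.63 and -2.09 on arrays 1 to 4, with a mean of -3.25 ± 0.42 (SE, 9.51-fold, adjusted p = 0.0359), and it was well above background in Cy5 on 3 arrays. Without any 1 of the 4 arrays 0 partners were called, but without array 1 or array 2 limma called 0 of all 19877 genes. The small calcium-binding S100 proteins, which tie annexins into complexes, went both ways without a call. S100a10, the partner of Anxa2, averaged -0.58 (adjusted p = 0.194, negative on 4 of 4 arrays). S100a6, a partner of Anxa11, averaged -1.10 (adjusted p = 0.0989, negative on 4 of 4). S100a11, a partner of Anxa1, averaged 0.56 (adjusted p = 0.219, positive on 4 of 4). S100a4 averaged -0.995 (adjusted p = 0.223) and was positive on array 3 alone, as were Anxa1 and Anxa2. Fpr1, a formyl peptide receptor, averaged -0.15 (adjusted p = 0.873), and Fpr2 did not pass the filter.

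Genes of matrix vesicles and mineralisation spread more widely than the annexins. The list was chosen with earlier results of these data known, so its spread is not an independent result. Of 17 listed genes 16 were measured, with 8 means on each side, a median of -0.08 and a median absolute ratio of 1.39, where the annexins had 0.33 and all genes 0.34. Of the measured genes 18.8% were called, against 2.17% of all genes. Phospho1, the phosphatase that releases phosphate inside matrix vesicles, was called toward Cy5, at 4.37, 2.44, 4.38 and 3.28 (mean 3.62 ± 0.38 SE, adjusted p = 0.0232). Car2, which encodes carbonic anhydrase 2, was called toward Cy3, at -5.03, -6.18, -5.30 and -5.77 (mean -5.57 ± 0.24, adjusted p = 0.00546). Without array 1 or array 2, 0 genes of the list were called toward Cy3. Toward Cy5, 0 were called without any 1 array. Without array 1 or array 2 limma called 0 of all 19877 genes, so the loss there could not depend on this list. The bright uncalled members were Sparc, a collagen-binding matrix protein gene, at 1.56 (adjusted p = 0.0804), Itgb1, an integrin chain, at -0.73 (adjusted p = 0.131), Mmp2 at -0.65 (adjusted p = 0.292) and Mmp14 at 0.16 (adjusted p = 0.668), the last pair being matrix metalloproteinase genes. Alpl, the alkaline phosphatase of mineralising tissue, had 1.69, 0.46, -0.75 and -1.18, with opposite signs between arrays 1 and 2 and arrays 3 and 4, as for Anxa6.

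Genes that expose or move phosphatidylserine, the lipid that annexins bind, gave 0 calls among 16 measured, with 4 at an unadjusted p under 0.05 by limma, where 21.2% of all genes reached that level. Their median was -0.03. The bright members were Gas6, a phosphatidylserine-binding ligand, at 1.24 (adjusted p = 0.0802, positive on 4 of 4 arrays), Pros1 at -0.58 (adjusted p = 0.355), Atp8a1, a lipid flippase gene, at -0.47 (adjusted p = 0.259) and Ptdss1, a synthase of the lipid, at -0.12 (adjusted p = 0.774). Genes of extracellular vesicles in general gave 0 calls among 13 measured, with 3 at an unadjusted p under 0.05 against the same 21.2%, and a median of 0.00. Among these the tetraspanin gene Cd9 averaged -0.77 (adjusted p = 0.121, negative on 4 of 4 arrays), Cd63 0.08 (adjusted p = 0.840), Sdcbp 0.27 (adjusted p = 0.437) and Hspa8 -0.15 (adjusted p = 0.694). The sign depended on the probe for Sdcbp (probe means from -0.24 to 0.27), Hspa8 (-0.18 to 0.10) and Ptdss1 (-0.12 to 0.48).

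**Figure D4:**
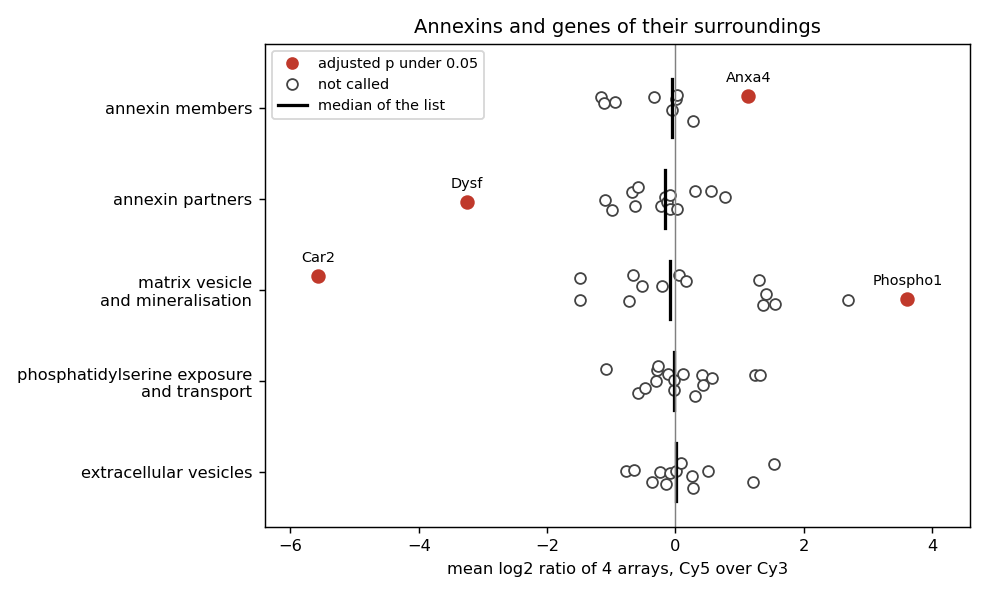
Mean log2 ratio of 4 arrays, Cy5 over Cy3, for measured genes of the annexins and of the 4 lists around them, with a bar at the median of each list. Filled points are genes with an adjusted p under 0.05, namely Anxa4, Dysf, Car2 and Phospho1. Of the matrix vesicle list 15 genes are drawn and 16 count in the median, and all 5 medians lie between -0.15 and 0.00.

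**Figure D5:**
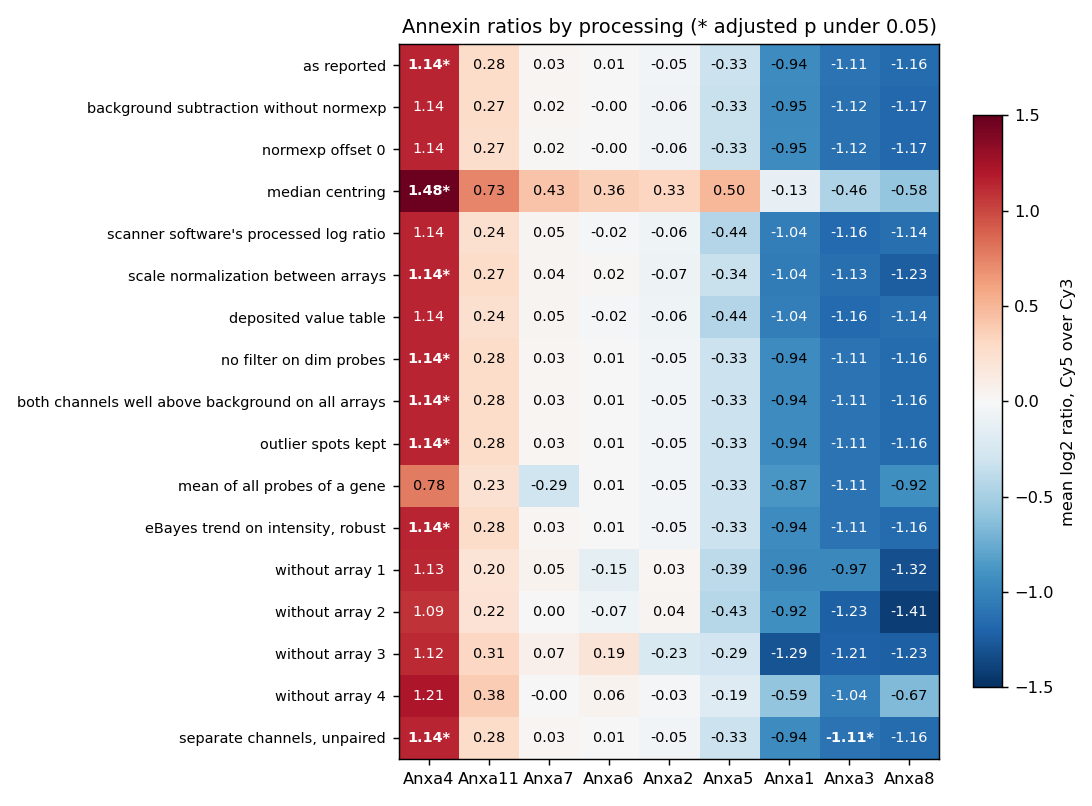
Mean log2 ratio of each annexin (columns, ordered by ratio) under each way of processing the arrays (rows), with an asterisk at an adjusted p under 0.05. Anxa4 is positive in every row and passes in some, Anxa3 passes with unpaired channels alone, and Anxa2, Anxa5, Anxa6 and Anxa7 change sign in at least 1 row.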

How the data were processed

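The members and gene lists were chosen with earlier results of these data known. Per the file headers, the deposited intensity values came from Agilent Feature Extraction 10.7.3.1 as mean spot signals and median local backgrounds of both dyes, with no normalization. The deposited files also hold the software's log10 ratio of processed signals and its 0 or 1 flags. The deposited value table holds log10 values that followed that ratio on every array (r = 1.00, median 0), so its direction is Cy5 over Cy3 and no further centring was found. Later steps by the authors are not stated in any label or header.

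Background was corrected with normexp (offset 50), and loess was fitted within arrays (limma 3.58.1, R 4.3.3). Control spots, 3671 in number, had weight 0. Outlier flags removed 949 spot values, 0 of them from annexins. Spots of a probe were averaged. A probe was kept if 3 or more of the 4 arrays put it well above background in 1 channel (44260 of 55681). Symbols came from the file and, by accession, from RefSeq GRCm38.p6, used for names alone (27235 probes matched). The brightest probe stood for a gene, giving 37380 features, 19877 of them genes. Mean ratios were tested against 0 by lmFit and eBayes (two-sided), and p-values of all features were adjusted together by Benjamini-Hochberg. Channel levels were taken after loess and Aquantile. The fit was tested on simulated data.

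Named genes were all annexins, each called member of a list and its 4 brightest uncalled members (1 called matrix vesicle gene is not reported here), and the 5 genes nearest to a called annexin. Dspp, Ifitm5, Sp7, Bglap, Odam, Ambn, Perp, Epcam, Enam, Krt14, Csf1r, H2-Ab1, Itgam, Postn, Pdgfra, Elane, Ly6g, Alpl, Fpr1 and the genes said not to have passed the filter were named after their values were seen.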

Additional observations from a re-analysis of the deposited data

Results flagged for a closer look

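Among 111 sets of 4 values, chance puts about 1 in 20 past Dixon's limit, and 6 were past it. The Cy5 level of the brighter Anxa8 probe was 11.55 (log2) on array 4, far below the other 3 arrays. The Cy5 level of Anxa6 was 12.84 on array 4, above the other 3. In the lists around the annexins, single arrays stood apart for the ratios of Plgrkt (0.74 on array 1), Slc20a1 (-0.43 on array 2), Atp11a (0.27 on array 4) and Pros1 (-1.62 on array 3).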

How the results depend on the processing

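Of all genes tested, 1.3% were called toward Cy5 and 0.87% toward Cy3 on all 4 arrays. Leaving out 1 array gave 0 to 0.513% toward Cy5 and 0 to 0.382% toward Cy3. Without array 1 or array 2 limma called 0 genes, though 3197 and 3420 genes had an unadjusted p under 0.05, and without array 4 the shares were 0.121% and 0.106%. Median centring called 5.93% toward Cy5, and 82.9% of its calls lay on that side, against 60% with loess. The scanner software's ratio gave 0.815% and 0.533%, the deposited values gave 0.845% and 0.538%, and separate unpaired channels, with no replicate block, gave 2.47% and 1.55%. All other fits are paired, since a ratio within an array pairs the 2 RNAs.

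Annexin calls toward Cy5 were 1 as reported and 0 without any 1 array (range 0 to 0), and 0 with plain background subtraction, normexp at offset 0, the software's ratio, the value table and the mean of all probes. In those settings Anxa4 had ratios of 1.139 (adjusted p = 0.0702), 1.137 (0.0707), 1.142 (0.0882), 1.142 (0.0881) and 0.78 (0.121), and 1.09 to 1.21 without 1 array. Unpaired channels, with no replicate block, called 1 annexin toward Cy3, Anxa3.

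Partner calls toward Cy3 were 1 as reported, 0 without any 1 array, 0 with no filter and 0 with both channels bright on all arrays, but 2 with unpaired channels. Median centring called 1 partner toward Cy5. Matrix vesicle calls toward Cy5 were 3 with median centring, 2 unpaired and 0 without any 1 array. Toward Cy3 they were 1 with subtraction, with offset 0, with the software's ratio and with the value table, and 0 to 1 without 1 array. Phosphatidylserine genes had 2 calls toward Cy5 with median centring and 2 unpaired, and extracellular vesicle genes 1 with median centring.

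Signs reversed for Anxa2 (0.33 with median centring, 0.031 without array 1 and 0.0447 without array 2), Anxa5 (0.50 with median centring), Anxa6 (-0.000705 with subtraction, -0.00294 with offset 0, -0.0233 with the software's ratio and with the deposited values, -0.152 without array 1 and -0.0665 without array 2) and Anxa7 (-0.29 with all probes, -0.00241 without array 4). Over arrays left out in turn the ranges were -0.228 to 0.0447 for Anxa2, -0.152 to 0.193 for Anxa6 and -0.00241 to 0.0738 for Anxa7. The causes were not tested. Anxa1, Anxa3, Anxa4, Anxa8 and Anxa11 kept their sign in all 16 alternatives.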
